A study of Mus musculus with 16 samples.

Results

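Potassium channel genes of the mouse carry the prefix Kcn, which covers pore-forming subunits, the auxiliary proteins that assemble with them and the non-coding RNA Kcnq1ot1. The members described here were all rows whose symbol begins with Kcn in the 2 count tables of a study of mouse hearts, 87 genes in all. The first table held 47 of them among 14138 genes and the second held 86 among 17831 genes, with 46 genes in both. The filter on low counts was passed by 46 of the 47 rows in the first table and by 46 of the 86 rows in the second. The first table held 5 CPT2H-KO hearts, in which carnitine palmitoyltransferase 2 (CPT2), a mitochondrial enzyme of long-chain fatty acid oxidation, was deleted in cardiomyocytes, and 5 WT hearts. The second held 3 CPT2/USP30 double KO hearts, which also lacked cardiac USP30, a deubiquitinase that restrains mitophagy, and 3 CPT2 single KO hearts, so that every heart of the second table carried the CPT2 deletion. The study's design text gives Myh6-Cre, which is active in heart muscle cells, with floxed USP30 for the USP30 knockout. No label gives the driver used for CPT2, the age of the mice or the chambers taken, and the tissue is labelled heart. The count of each gene was compared within its own table only.

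Potassium channels let potassium leave the heart muscle cell and so end each action potential and hold the resting voltage. In mouse ventricle the early repolarisation is carried by transient outward channels of the Kcnd genes with their partner Kcnip2, the later part by delayed rectifiers such as those of Kcna5, and the resting potential by inward rectifiers of the Kcnj2 group. Channels of Kcnj3 and Kcnj5 answer acetylcholine and are known mainly from atrium and nodal tissue, and the channels of Kcnj11 open when cellular ATP is low.

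The pore of a potassium channel is lined by a short selectivity filter, and its codons tell the pore-forming members from the auxiliary ones. In the longest coding transcript of each gene in GENCODE M21, 70 of 70 pore-forming members held the in-frame filter signature and 0 of 16 auxiliary members did. Kcnq1ot1 has no coding transcript. Of 9 Kcnk members, whose subunits carry a tandem pore, 7 held 2 copies. The 5 windows of 45 coding bases below, on GRCm38, belong to genes on which the results turn, and capitals mark the 15 bases of the filter. Kcnc1 (chr7:46427958-46428002, plus strand) and Kcnj4 (chr15:79485352-79485396, minus strand) were higher in CPT2H-KO hearts, while Kcnj2 (chr11:111072192-111072236, plus strand), Kcnj3 (chr2:55437612-55437656, plus strand) and Kcnh2 (chr5:24325540-24325584, minus strand) were lower.
Kcnc1: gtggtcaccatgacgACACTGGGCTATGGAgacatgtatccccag
Kcnj4: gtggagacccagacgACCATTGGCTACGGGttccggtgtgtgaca
Kcnj2: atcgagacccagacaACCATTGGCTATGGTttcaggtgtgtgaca
Kcnj3: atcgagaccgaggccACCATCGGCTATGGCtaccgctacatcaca
Kcnh2: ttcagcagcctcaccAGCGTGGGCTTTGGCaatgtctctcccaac
The windows of Kcnj4 and Kcnj2 were the same in 39 of 45 bases and their filters in 13 of 15, and the windows of Kcnj2 and Kcnj3 were the same in 33 of 45. Those of Kcnj4 and Kcnh2 were the same in 18 of 45 bases. No source used here says how the authors counted reads that fit more than a single gene, so the values of such close relatives are uncertain where reads fall in shared stretches.

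Library totals were 54674422 to 132762776 counts in the first table and 11067969 to 13532716 in the second. The Kcn rows together took 0.0335 to 0.0468% of counts in CPT2H-KO libraries and 0.0589 to 0.0716% in WT libraries. They took 0.135 to 0.197% in double KO libraries and 0.16 to 0.167% in single KO libraries. Levels are CPM, the count of a gene scaled to the TMM-adjusted size of its library, and are not compared across tables. Cpt2 stood at 30.4 to 44.9 CPM in CPT2H-KO and 53 to 89.9 CPM in WT hearts, and Usp30 at 7.45 to 10.4 CPM in double KO and 18.5 to 22.8 CPM in single KO hearts. Cardiomyocyte markers were abundant in every library, with a summed level over 6 genes of 15300 to 19400 CPM in CPT2H-KO and 19200 to 21200 CPM in WT hearts, and 4 of the 6 were lower. Fibroblast markers summed to 560 to 1060 CPM in CPT2H-KO and 415 to 557 CPM in WT hearts, with 2 of 5 higher. Libraries differed in atrial transcripts. Myl7, a myosin light chain gene of atrial muscle, was at 14.1, 0.496, 0.285, 0.61 and 144 CPM in CPT2H-KO replicates 1 to 5, against 194, 47.6, 82.8, 97.7 and 25.4 CPM in WT. It was at 1.49, 102 and 425 CPM in double KO and at 0.0813, 0.0749 and 0.458 CPM in single KO replicates 1 to 3. Y-linked transcripts were at background in CPT2H-KO replicates 1 and 3, WT replicate 1, all double KO libraries and single KO replicate 3. In bulk tissue, fewer cells of a type and less RNA per cell cannot be told apart, which holds for every result below.

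The CPT2H-KO and WT hearts address how the channel transcripts differ when heart muscle lacks CPT2. Of a panel of 17 genes listed for cardiac repolarisation, 12 were lower in CPT2H-KO hearts. Kcnj3, Kcnj2 and Kcnd2 had the largest falls. The calls of Kcnj3 and Kcnd2 were lost with the level of atrial transcripts as a covariate, and that of Kcnj2 was kept. Kcnc1 and Kcnj4, which were scarcely present in WT hearts, were higher. Of 46 tested members, edgeR called 24 at an adjusted p under 0.05, or 52.2%, where the share over all 14123 tested genes was 33.7%. Of these 17 were lower, or 37% against 17% of all genes, and 7 were higher, or 15.2% against 16.7% of all genes, which is near the background. The median log2 fold change over the 46 members was -0.33, and over all genes it was -0.007. Over the 6 cardiomyocyte markers it was -0.52. The groups did not overlap for 20 of the 46, or 43.5%, where the share of all genes was 24.7%. The panel of 17 pore and auxiliary genes was listed with earlier results of these data known, so its counts describe the list and are not a test of it. In it 12 were lower, 2 were higher (Kcnc1 and Kcne1) and 3 were not called (Kcna5, Kcnj11 and Kcnk3), with a median of -0.67. The summed level of all Kcn rows was 415, 383, 523, 475 and 431 CPM in CPT2H-KO replicates 1 to 5 and 639, 572, 583, 598 and 549 CPM in WT replicates 1 to 5.

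With the level of atrial transcripts in each library as a covariate, 14 members were called (10 lower, 4 higher), or 9 of the panel, where the calls over all genes also went down, to 2736 or 19.4%. Where this covariate ended the call of a named gene, its value stands beside that gene.

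**Figure D1:**
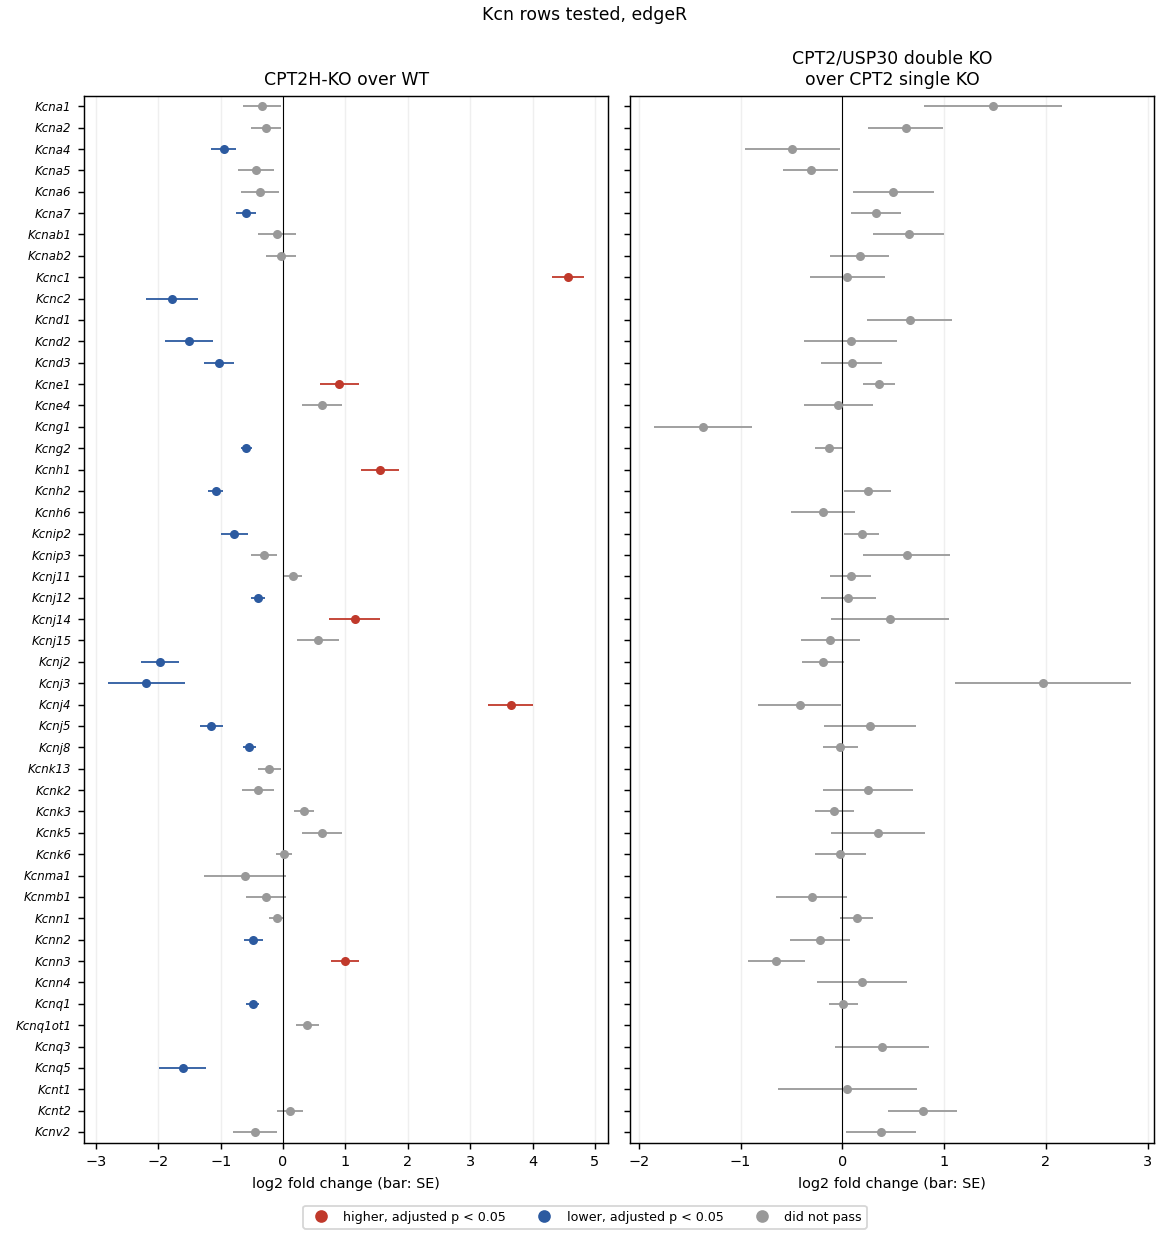
Log2 fold change with its standard error (bar) for tested Kcn rows, CPT2H-KO over WT at the left and CPT2/USP30 double KO over CPT2 single KO at the right, coloured by the edgeR call at an adjusted p under 0.05. At the left 16 of the 43 rows drawn are lower and 6 higher, with Kcnc1 (4.57) and Kcnj4 (3.65) farthest to the right. At the right no row drawn passed.

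The transient outward group was lower as a whole. Kcnd2, which encodes the Kv4.2 pore (chromosome 6, 21215503 to 21729805, plus strand, GRCm38), stood at 1.46, 4.73, 8.83, 10.3 and 6.46 CPM in CPT2H-KO hearts, against 19.5, 21.2, 18.6, 19.5 and 11.9 CPM in WT hearts. Every CPT2H-KO library lay under the lowest WT library, and CPT2H-KO replicate 1 was lowest of all. The log2 fold change of Kcnd2 was -1.51 (SE 0.38, adjusted p = 0.0115), and with the atrial covariate it was -1.72 with an adjusted p of 0.0506. Kcnd3, for the Kv4.3 pore, had 1.98, 4.58, 6.55, 6.22 and 5.78 CPM in CPT2H-KO and 10.8, 10.6, 10.1, 10.2 and 9.27 CPM in WT hearts, again without overlap. Its log2 fold change was -1.02 (SE 0.24, adjusted p = 0.00866). Kcnip2 encodes KChIP2, the calcium-binding partner that Kv4 channels need at the cell surface, and per exon length it was the most abundant Kcn transcript of the WT heart. It stood at 19.5, 32.1, 55, 48.6 and 41.9 CPM in CPT2H-KO and 62.2, 70.1, 71.8, 69.4 and 65.9 CPM in WT hearts (log2 fold change -0.78, SE 0.22, adjusted p = 0.0184). The WT libraries were close together while those of CPT2H-KO hearts spread widely, with the same library lowest as for both Kcnd genes. Kcna4, for the slowly recovering Kv1.4 channel, averaged 1.11 ± 0.346 CPM in CPT2H-KO and 2.14 ± 0.131 CPM in WT hearts (SD, n = 5 each; log2 fold change -0.95, SE 0.20, adjusted p = 0.00437), and its call was lost with the atrial covariate (-0.69, adjusted p = 0.0562). Kcnip3, the other tested gene of that subfamily, was not called (-0.31). Per kb of exon, Kcnd2 made up 57.8 to 75.5% of the Kcnd2 and Kcnd3 total in CPT2H-KO libraries and 70.5 to 78.8% in WT libraries.

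Among the delayed rectifier genes, Kcnh2, Kcng2 and Kcnq1 were lower, and Kcna5 was not called. Kcnh2, which encodes the ERG channel of the rapid component (chromosome 5, 24319589 to 24351604, minus strand), was at 17.3, 11.2, 15.2, 14.3 and 13 CPM in CPT2H-KO and 34.8, 30.5, 25.3, 29.4 and 30 CPM in WT hearts. The groups were well apart, by -1.08 on the log2 scale (SE 0.12, adjusted p = 0.000113). Kcng2, whose silent subunit modifies other Kv channels, fell to 30.8 ± 3.62 CPM in CPT2H-KO against 46.5 ± 3.63 CPM in WT hearts (log2 fold change -0.59, SE 0.09, adjusted p = 0.000791). Kcna5, for Kv1.5, had 4.8, 9.81, 15, 16.3 and 15.1 CPM in CPT2H-KO and 11.5, 12.6, 20.7, 20.3 and 17.1 CPM in WT hearts. The groups overlapped and it was not called (log2 fold change -0.43, SE 0.29, adjusted p = 0.287), although it was with the replicate numbers as a block (-0.50, adjusted p = 0.0391). Kcna7, a Kv1 channel gene of striated muscle, fell to 1.02 ± 0.102 CPM in CPT2H-KO against 1.54 ± 0.310 CPM in WT hearts (-0.60, adjusted p = 0.0160). Kcna1, Kcna2 and Kcna6 were not called (-0.34, -0.28 and -0.37), so that 2 of 6 Kcna genes were lower and none higher.

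Kcnq1 and Kcne1 encode the pore and the small auxiliary subunit of the slow delayed rectifier, and they moved in opposite directions. Kcnq1 was at 17, 15, 19.4, 17.3 and 15.2 CPM in CPT2H-KO and 24.5, 18.3, 23.2, 28.1 and 23.7 CPM in WT hearts, overlapping in 1 library of each group (-0.49 on the log2 scale, SE 0.11, adjusted p = 0.00692). Kcne1 was at 17.9, 7.03, 14.1, 11.5 and 9.62 CPM in CPT2H-KO and 6.86, 3.68, 4.16, 11.1 and 6.28 CPM in WT hearts (log2 fold change 0.90, SE 0.31, adjusted p = 0.0459). The Kcne1 call is close to the threshold: it was lost without any of WT replicates 1, 2, 3 and 5 or CPT2H-KO replicates 1, 3 and 4 (0.71 to 0.93), when scaled by library totals alone (0.58, adjusted p = 0.126), with a sex term (0.75, adjusted p = 0.0904) and with the atrial covariate (1.02, adjusted p = 0.114). Per kb of exon, Kcne1 made up 37.4 to 57.3% of the Kcnq1 and Kcne1 total in CPT2H-KO libraries and 18.6 to 33.5% in WT libraries. Kcne4, whose product inhibits Kv7.1 channels in expression systems, was not called (0.62, adjusted p = 0.157). Kcnq1ot1, a long non-coding RNA read from the opposite strand within Kcnq1, was at 37.4, 54, 55.3, 46.4 and 57.5 CPM in CPT2H-KO and 38.3, 34.4, 27.3, 32.9 and 58 CPM in WT hearts and was not called (0.39, adjusted p = 0.129). Exons of Kcnq1 and Kcnq1ot1 overlap, and no source used here states whether counting used strand, so both values are uncertain in that stretch. The same holds for Kcna6, Kcnab1, Kcnd3, Kcng2, Kcnj15, Kcnk2, Kcnk3, Kcnma1, Kcnn1, Kcnn2, Kcnq5, Kcnt2, Abcc9 and Irx3, which also share exonic bases with a gene on the opposite strand.

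**Figure D2:**
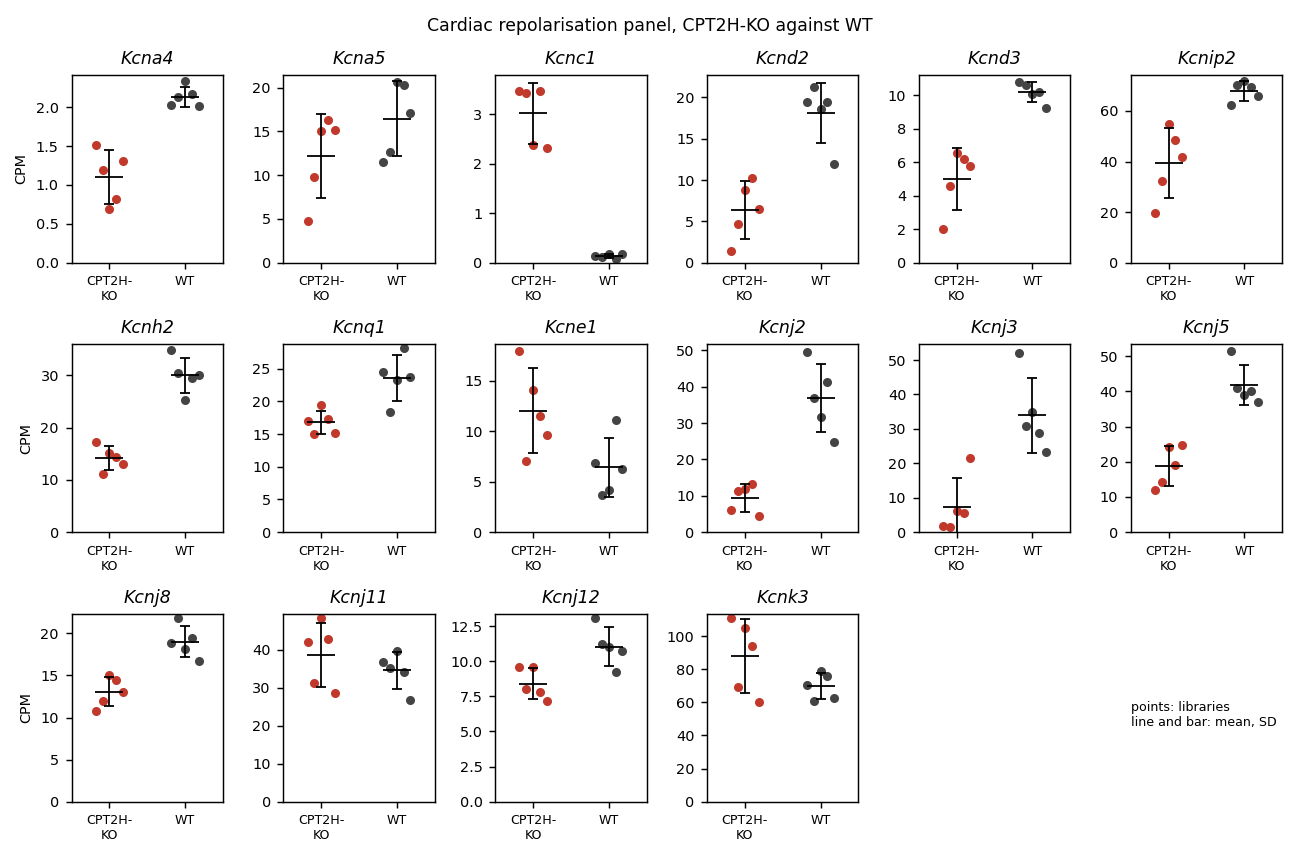
CPM of 16 panel genes in each library of CPT2H-KO hearts (left in each panel) and WT hearts (right), 5 libraries each, with mean and SD. Groups are apart for Kcnd2, Kcnd3, Kcnip2, Kcnh2, Kcna4, Kcnj2, Kcnj3, Kcnj5, Kcnj8 and Kcnc1, and overlap for Kcna5, Kcne1, Kcnq1, Kcnj11, Kcnj12 and Kcnk3.

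The inward rectifiers that hold the resting potential shifted in composition. Kcnj2, for Kir2.1 (chromosome 11, 111066164 to 111076821, plus strand), was at 5.97, 11.3, 11.9, 13.3 and 4.56 CPM in CPT2H-KO and 49.5, 37, 31.7, 41.2 and 24.7 CPM in WT hearts. The highest CPT2H-KO library was far under the lowest WT library, and the log2 fold change was -1.97 (SE 0.30, adjusted p = 0.000724). Kcnj12, for Kir2.2, had 9.56, 8.04, 9.56, 7.78 and 7.14 CPM in CPT2H-KO and 13.1, 11.2, 11, 9.27 and 10.7 CPM in WT hearts (log2 fold change -0.40, SE 0.11, adjusted p = 0.0178), and the atrial covariate ended its call (-0.44, adjusted p = 0.0686). Kcnj4, for Kir2.3 (chromosome 15, 79483714 to 79505241, minus strand), was at 1.62, 0.827, 0.732, 1 and 0.594 CPM in CPT2H-KO and 0.103, 0.0357, 0.0762, 0.0643 and 0.0991 CPM in WT hearts. It was low in both groups but without overlap (log2 fold change 3.65, SE 0.36, adjusted p = 4.82e-05). Kcnj14, for Kir2.4, outside the rule for named genes and singled out after its values were seen, was higher at 0.813 ± 0.421 CPM in CPT2H-KO against 0.360 ± 0.184 CPM in WT hearts. Its log2 fold change was 1.15 (SE 0.41) and its adjusted p, 0.0499, was just under the threshold. The Kcnj14 call was lost in 13 of 18 alternatives, among them leaving out any library other than WT replicate 2 or CPT2H-KO replicate 5 (adjusted p = 0.052 to 0.128) and the atrial covariate (0.70, adjusted p = 0.345). Per kb of exon, Kcnj2 gave 20.6 to 42.6% of the summed Kcnj2, Kcnj12 and Kcnj4 level in CPT2H-KO libraries and 53.5 to 69% in WT libraries, while Kcnj12 gave 49.3 to 70% in CPT2H-KO and 30.7 to 45.9% in WT libraries. On this scale Kcnj12 was the leading transcript of the Kir2 group in 5 of 5 CPT2H-KO libraries and Kcnj2 in 5 of 5 WT libraries. That order in CPT2H-KO hearts depends on the exon lengths used, 5.44 kb for Kcnj2 and 2.75 kb for Kcnj12. By CPM alone, Kcnj2 was above Kcnj12 in CPT2H-KO replicates 2, 3 and 4 and under it in replicates 1 and 5.

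The acetylcholine-gated pair was lower. Kcnj3 (GIRK1; chromosome 2, 55435970 to 55598145, plus strand) was at 1.76, 1.47, 6.16, 5.68 and 21.6 CPM in CPT2H-KO and 52, 30.8, 34.8, 28.7 and 23.3 CPM in WT hearts. Kcnj5 (GIRK4) was at 11.9, 14.3, 24.3, 19 and 24.7 CPM in CPT2H-KO and 51.5, 41.1, 38.9, 40.1 and 37.1 CPM in WT hearts. Neither gene overlapped between groups, and the log2 fold changes were -2.19 for Kcnj3 (SE 0.62, adjusted p = 0.0196) and -1.15 for Kcnj5 (SE 0.19, adjusted p = 0.00138). The library with the most Kcnj3 in each group also had the most Myl7: CPT2H-KO replicate 5 at 144 CPM of Myl7 and WT replicate 1 at 194 CPM. The other libraries did not keep that order in either group. With the atrial covariate Kcnj3 was no longer called (-1.44, adjusted p = 0.106), while Kcnj5 was (-1.0, adjusted p = 0.0247). Without CPT2H-KO replicate 5 the value of Kcnj3 was -3.17. Over its 6 genes the atrial list summed to 372 to 2700 CPM in CPT2H-KO and 244 to 1230 CPM in WT hearts. Of these genes 1 was called higher (Nppa) and none lower. The median log2 fold change of the list was -0.62, so the summed level does not stand for the whole list. Myl7 was at 0.285 to 0.61 CPM in CPT2H-KO replicates 2 to 4 and at 14.1 and 144 CPM in replicates 1 and 5. WT hearts had 25.4 to 194 CPM of Myl7. Of the conduction system list 5 of 6 genes are in the table, with a summed level of 4.75 to 10.9 CPM in CPT2H-KO and 15.4 to 28.9 CPM in WT hearts, and 3 of them, Hcn4 among them, were lower. The part of conduction tissue in the Kcnj3 and Kcnj5 values was not tested. Kcnj3 shares exonic bases with an antisense gene, Gm26794, so part of its count is uncertain.

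**Figure D3:**
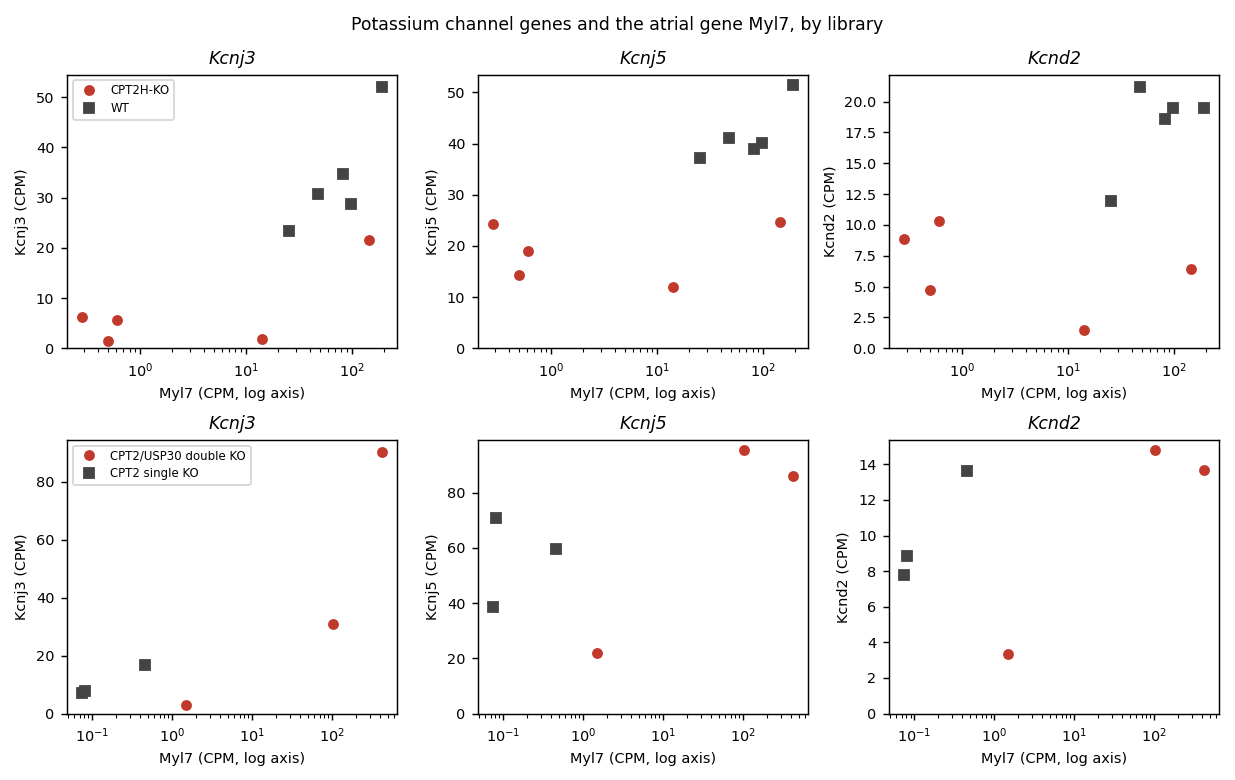
CPM of Kcnj3, Kcnj5 and Kcnd2 against CPM of the atrial gene Myl7 (log axis), a point for each library, CPT2H-KO and WT hearts above and CPT2/USP30 double KO and CPT2 single KO hearts below. In the upper row CPT2H-KO replicate 5, at 144 CPM of Myl7, has the highest Kcnj3 of its group (21.6 CPM). In the lower row the double KO libraries with Myl7 at 102 and 425 CPM have the highest Kcnj3 (30.8 and 90.1 CPM).

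Genes of the ATP-sensitive channel separated by subunit. Kcnj11, the Kir6.2 pore of cardiomyocytes, was at 41.9, 31.3, 48.4, 42.7 and 28.6 CPM in CPT2H-KO and 36.8, 35.3, 39.6, 34.2 and 26.8 CPM in WT hearts and was not called (log2 fold change 0.16, SE 0.15, adjusted p = 0.445). Its sign turned when scaled by library totals alone (-0.12). Kcnj8, the Kir6.1 pore known mainly from vascular cells, fell to 10.8, 12, 15, 14.5 and 13 CPM in CPT2H-KO against 18.9, 21.8, 18.2, 19.5 and 16.7 CPM in WT hearts (log2 fold change -0.54, SE 0.10, adjusted p = 0.00259). Abcc9, which encodes the sulfonylurea receptor subunit SUR2, fell to 161 ± 34.8 CPM in CPT2H-KO against 271 ± 27.5 CPM in WT hearts (-0.75, SE 0.14, adjusted p = 0.00273), while Abcc8, for SUR1, was at 23.8 ± 2.15 and 22.6 ± 1.84 CPM in CPT2H-KO and WT hearts and was not called (0.08). The pericyte list, which marks cells known to carry Kcnj8 and Abcc9, summed to 330 to 420 CPM in CPT2H-KO and 411 to 444 CPM in WT hearts, with 2 of 5 genes lower and 1 higher. The smooth muscle list summed to 86.7 to 193 CPM in CPT2H-KO and 163 to 252 CPM in WT hearts, with 1 of 5 genes lower, and the endothelial list to 281 to 365 CPM in CPT2H-KO and 260 to 342 CPM in WT hearts, with 0 of 5 called. The part of these cells in the Kcnj8 and Abcc9 values was not tested.

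The Kcnk genes of background leak channels had 0 of 5 tested members called. Kcnk3, for TASK-1, had the highest level per exon length in CPT2H-KO hearts, at 22.1 ± 5.62 CPM per kb against 17.5 ± 2.02 CPM per kb in WT hearts. Its CPM values were 111, 69.1, 105, 93.9 and 59.9 in CPT2H-KO and 70.2, 61, 79.2, 76 and 62.4 in WT hearts, which overlapped (log2 fold change 0.33, SE 0.16, adjusted p = 0.140). Without CPT2H-KO replicate 5 it was called (0.44, adjusted p = 0.0310). Kcnk2, Kcnk5, Kcnk6 and Kcnk13 were at or under 3.68 CPM in every library, with log2 fold changes from -0.40 to 0.62.

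**Figure D4:**
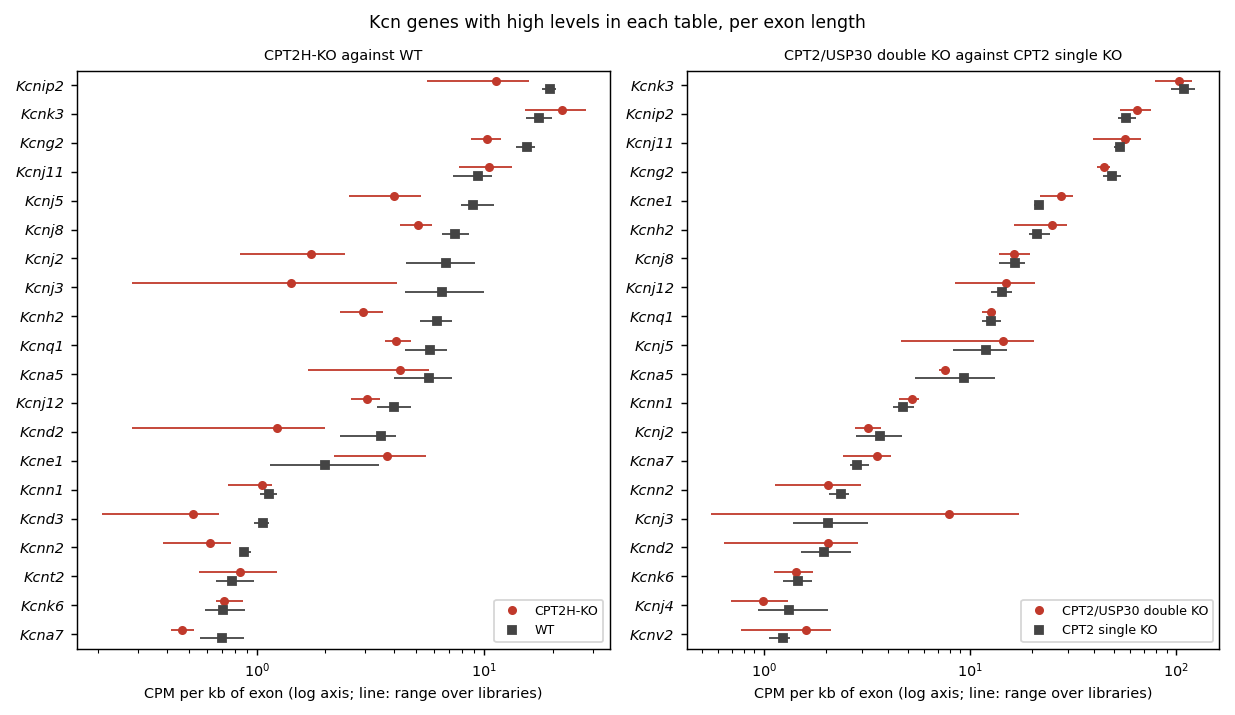
CPM per kb of exon (log axis) for 20 Kcn genes with a high level in WT hearts (left) or CPT2 single KO hearts (right), ordered by that level. Points are group means, CPT2H-KO with WT at the left and CPT2/USP30 double KO with CPT2 single KO at the right, and lines run from the lowest to the highest library. Kcnip2 leads in WT hearts (19.5 CPM per kb) and Kcnk3 in CPT2H-KO hearts (22.1 CPM per kb).

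Of the other genes that rose, several are best known from neurons. Kcnc1, for the Kv3.1 channel of fast-firing neurons (chromosome 7, 46396497 to 46438704, plus strand), was at 3.48, 3.43, 2.38, 3.48 and 2.32 CPM in CPT2H-KO and 0.125, 0.107, 0.173, 0.0707 and 0.165 CPM in WT hearts. It had the lowest p of any member (log2 fold change 4.57, SE 0.26, adjusted p = 4.05e-06), and its fitted ratio was 23.7. Kcnh1, for the EAG1 channel of brain, averaged 0.5 ± 0.167 CPM in CPT2H-KO and 0.177 ± 0.0532 CPM in WT hearts (1.55, SE 0.30, adjusted p = 0.00290). Kcnn3, for the calcium-activated SK3 channel, was at 3.18, 3.62, 3.86, 3.81 and 2.57 CPM in CPT2H-KO and 2.46, 1.3, 1.07, 1.7 and 2.1 CPM in WT hearts (0.99, SE 0.22, adjusted p = 0.00615), and its call was lost with the atrial covariate (0.79, adjusted p = 0.0730). None of Kcnc1, Kcnh1 and Kcnn3 overlapped between groups. Of 6 listed neuron and Schwann cell markers 3 are in the table, with a summed level of 3.46 to 8.52 CPM in CPT2H-KO and 6.05 to 6.76 CPM in WT hearts and 0 of 3 called, and the part of nerve cells in these rises was not tested beyond that.

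The promoters of both genes with the largest rises are shown here for the 250 bases before the RefSeq start on GRCm38.p6, with matches in capitals. Both strands were searched for the TATA box (letters TATAAA), the CCAAT box (letters CCAAT), the GC box (letters GGGCGG) and the E-box (letters CACGTG), which do not overlap each other in these windows. Kcnc1 (chr7:46396218-46396467, plus strand) and Kcnj4 (chr15:79505242-79505491, minus strand) each held 3 GC boxes and none of the other motifs, where 32.7% of 32851 promoters hold at least 1 GC box; how many hold 3 was not counted. In Kcnj4 a pair of these matches lie side by side on opposite strands.
Kcnc1: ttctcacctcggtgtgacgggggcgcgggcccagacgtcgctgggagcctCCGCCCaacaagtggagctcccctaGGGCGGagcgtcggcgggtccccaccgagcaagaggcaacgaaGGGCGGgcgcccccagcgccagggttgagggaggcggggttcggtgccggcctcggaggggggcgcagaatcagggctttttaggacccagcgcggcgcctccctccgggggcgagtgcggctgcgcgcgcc
Kcnj4: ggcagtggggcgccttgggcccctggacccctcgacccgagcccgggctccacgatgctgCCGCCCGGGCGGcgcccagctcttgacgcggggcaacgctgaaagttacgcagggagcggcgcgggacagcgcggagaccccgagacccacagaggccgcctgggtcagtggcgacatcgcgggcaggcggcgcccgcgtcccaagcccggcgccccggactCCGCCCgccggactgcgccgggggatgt
The same window of Kcnj2, which was lower, held 2 GC boxes, 1 CCAAT box and 1 E-box, where a CCAAT box occurs in 33.8% and an E-box in 6.02% of promoters. A TATA box occurs in 12.4% of promoters.

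Members with low levels fell as well. Kcnc2, a second Kv3 gene, had 0.182 ± 0.128 CPM in CPT2H-KO and 0.671 ± 0.232 CPM in WT hearts (-1.78, SE 0.42, adjusted p = 0.00777), the opposite direction to Kcnc1. Kcnq5, for Kv7.5, had 0.170 ± 0.102 CPM in CPT2H-KO and 0.544 ± 0.127 CPM in WT hearts (-1.61, SE 0.38, adjusted p = 0.00827). The atrial covariate ended the calls of Kcnc2 (-1.28, adjusted p = 0.0527) and Kcnq5 (-1.23, adjusted p = 0.0528). Kcnn2, for the calcium-activated SK2 channel, chosen after its values were seen, was lower at 4.66 ± 1.09 CPM in CPT2H-KO against 6.53 ± 0.284 CPM in WT hearts. Its log2 fold change was -0.48 (SE 0.15, adjusted p = 0.0271), and the call was lost without any of WT replicates 1, 2, 3 and 5 or CPT2H-KO replicate 2 (adjusted p = 0.0509 to 0.0548) and with the atrial covariate (-0.58, adjusted p = 0.0594). The beta subunit genes Kcnab1 and Kcnab2 (-0.10 and -0.03), the calcium-activated Kcnma1 with its partner Kcnmb1 (-0.61 and -0.28), Kcnn1 (-0.10), Kcnj15 (0.56), the sodium-activated Kcnt2 (0.11) and the silent Kcnv2 (-0.45) were not called. Kcnh7, the only Kcn row of this table that was not tested, had 154 counts over the 10 libraries. Within the CPT2H-KO group, replicate 1 was the lowest library for 8 of the 17 lower members and replicate 2 for 5.

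Of 22 genes listed as partners of these channels, 16 were tested and 7 passed, where 33.7% of all genes did, and nothing particular to the partners is read from that count. The 5 lower ones were Abcc9, the caveolin gene Cav3 (-0.38, adjusted p = 0.00598), the Iroquois transcription factor genes Irx3 (-0.74, adjusted p = 0.0261) and Irx5 (-0.84, adjusted p = 0.00472), of which Irx5 is known to repress Kcnd2 across the mouse ventricular wall, and Ensa (-0.20, adjusted p = 0.0238), a phosphatase inhibitor described as a ligand of the sulfonylurea receptor. The 2 higher ones were the kinase gene Sgk1 (0.83, adjusted p = 0.0422) and Irx4 (0.34, adjusted p = 0.0462). The median over the 16 was 0.01. This group was the least stable: 3 to 7 of its genes were called when a single library was left out, and 2, Abcc9 and Sgk1, with the atrial covariate. That covariate ended the calls of Cav3 (-0.31, adjusted p = 0.0734), Irx3 (-0.50, adjusted p = 0.259), Irx5 (-0.58, adjusted p = 0.0737), Irx4 (0.11, adjusted p = 0.561) and Ensa (-0.17, adjusted p = 0.142). Irx4 and Sgk1 were not called when scaled by library totals alone (0.08 and 0.53).

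The double and single KO hearts address how the same transcripts differ when USP30 is removed as well. Y-linked transcripts were at 0.581 to 0.911 CPM in double KO libraries and at 124, 117 and 0.733 CPM in single KO replicates 1 to 3. Differences by sex and by USP30 therefore cannot be fully told apart here. No Kcn transcript passed the test in either direction. edgeR called 0 of 46 tested members, where 0% of the 12997 tested genes were called, and DESeq2 and limma-voom also called 0 members, though DESeq2 called 113 of all genes. At an unadjusted p under 0.05 there were 4 members, against 7.25% of all genes, and the groups did not overlap for 3, or 6.52% against 11.8% of all genes. The median log2 fold change of the members was 0.11, and that of all genes 0.003. SEs of the log2 fold changes ran from 0.14 to 0.86, with 3 libraries a group. The summed Kcn level was 1322, 1941 and 1927 CPM in double KO and 1628, 1684 and 1625 CPM in single KO replicates 1 to 3. Double KO replicate 1 was the lowest of the 6 libraries for 17 of the 46 members and the highest for 13.

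The 8 members with the smallest p are given as values, since none passed. Kcng1, for a silent Kv subunit, was at 1.08, 0.497 and 0.405 CPM in double KO and 1.63, 2.32 and 1.19 CPM in single KO hearts (log2 fold change -1.37, SE 0.48, adjusted p = 0.529). Kcnn3 was at 3.73, 2.32 and 2.75 CPM in double KO and 5.04, 4.87 and 3.94 CPM in single KO hearts (-0.65, SE 0.28, adjusted p = 0.671). These and Kcnab1, for a beta subunit of Kv1 channels (2.16, 1.9 and 1.38 CPM in double KO, 1.22, 1.05 and 1.19 CPM in single KO hearts; 0.65, adjusted p = 0.778), were the 3 members whose groups did not overlap. Kcnt2, for the sodium-activated Slick channel, had 8.22, 3.97 and 5.26 CPM in double KO and 2.52, 2.99 and 4.58 CPM in single KO hearts (0.79, adjusted p = 0.675). Kcne1 had 70.5, 95 and 102 CPM in double KO and 65.6, 72.9 and 69.8 CPM in single KO hearts (0.36, SE 0.16, adjusted p = 0.690). Kcna1 had 0.747, 4.47 and 5.99 CPM in double KO and 1.87, 0.524 and 1.65 CPM in single KO hearts (1.48, SE 0.68, adjusted p = 0.697), and Kcna2 had 2.41, 5.55 and 5.91 CPM in double KO and 3.5, 2.4 and 3.11 CPM in single KO hearts (0.62, adjusted p = 0.797). In both Kcna genes double KO replicates 2 and 3 were high and replicate 1 was not.

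Kcnj3 showed the widest spread. It was at 2.9, 30.8 and 90.1 CPM in double KO and 7.89, 7.26 and 16.8 CPM in single KO hearts, and its log2 fold change was 1.97 (SE 0.86, adjusted p = 0.675). Its order over the double KO libraries was that of Myl7, at 1.49, 102 and 425 CPM. Without double KO replicate 1, Kcnj3 was called (2.52, adjusted p = 0.0287), without replicate 3 its value was 0.65, and with the atrial covariate its sign turned (-2.45, adjusted p = 0.0739). The summed atrial list was 1330 to 7490 CPM in double KO and 1200 to 2750 CPM in single KO hearts, with 4 of 6 genes tested and 0 called. That sum is mostly Nppa, at 886 to 7450 CPM in double KO and 1190 to 2740 CPM in single KO hearts. The other tested atrial genes did not overlap between groups: besides Myl7, Myl4 was at 7.39 to 874 CPM in double KO and 2.11 to 3.5 CPM in single KO hearts, and Dkk3 at 33.4 to 222 CPM in double KO and 8.21 to 16.3 CPM in single KO hearts. The summed conduction list was 15.7 to 65.5 CPM in double KO and 17.6 to 30.8 CPM in single KO hearts, and its gene Cntn2 did not overlap, at 3.82 to 17.1 CPM in double KO and 1.14 to 1.28 CPM in single KO hearts.

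**Figure D5:**
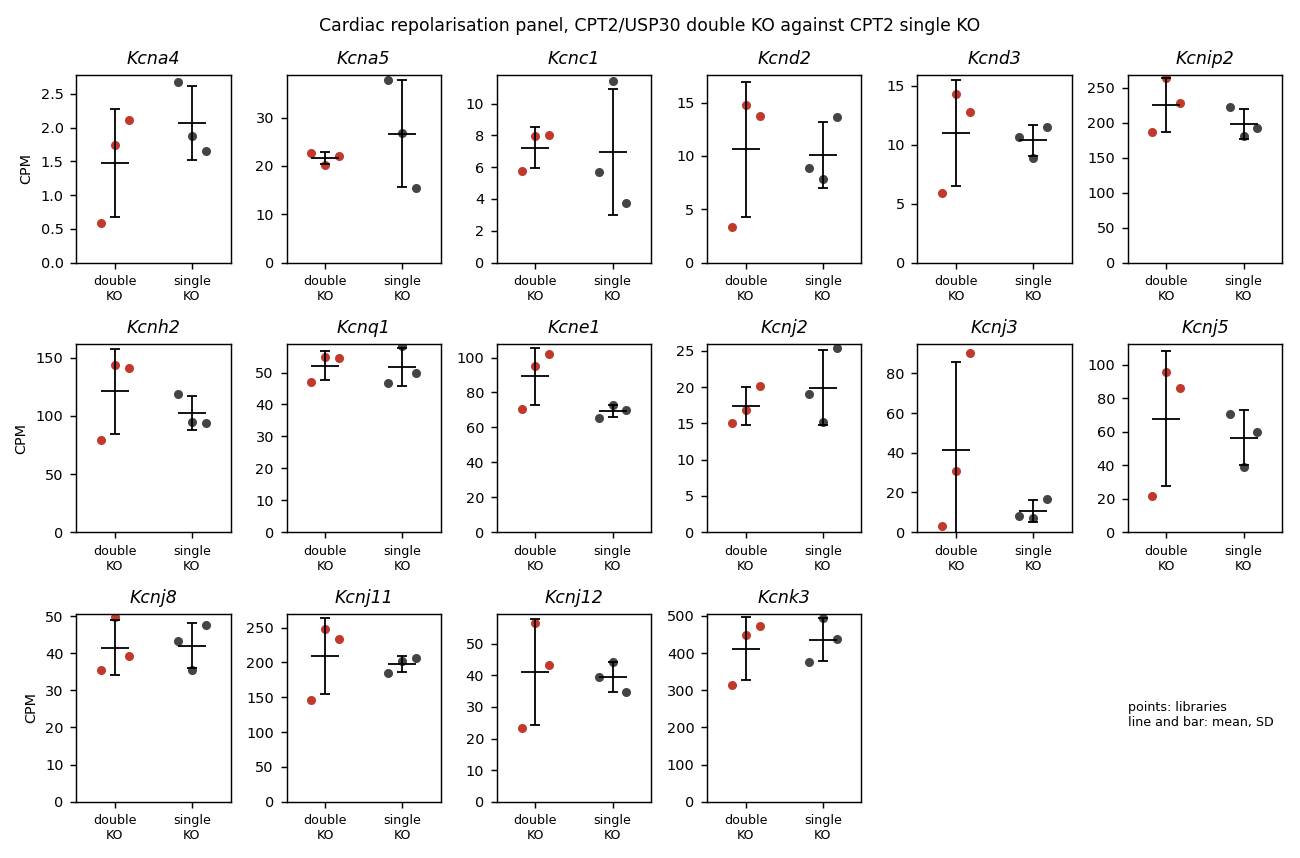
CPM of 16 panel genes in each library of CPT2/USP30 double KO hearts (left in each panel) and CPT2 single KO hearts (right), 3 libraries each, with mean and SD. Groups overlap for all 16 genes, and double KO replicate 1 is the lowest point of its group for Kcnd2, Kcnd3, Kcnj3 and Kcnj5.

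The panel genes that were lower in CPT2H-KO hearts were not separated between double and single KO hearts. Kcnd2 had 3.32, 14.8 and 13.7 CPM in double KO and 8.87, 7.79 and 13.6 CPM in single KO hearts (0.08, SE 0.46, adjusted p = 0.986). Kcnh2 had 79.2, 144 and 141 CPM in double KO and 119, 94.6 and 93.6 CPM in single KO hearts (0.25, SE 0.23, adjusted p = 0.885). Kcnj2 had 15.1, 16.9 and 20.2 CPM in double KO and 19.1, 15.2 and 25.4 CPM in single KO hearts (-0.19, SE 0.21, adjusted p = 0.903). In each of them the SE is larger than or about as large as the estimate, so the size of any difference is not fixed by these libraries. Values near 0 also depended on the atrial covariate, with which Kcnd2 was at -1.64 (adjusted p = 0.128), Kcnd3 at -0.84 (adjusted p = 0.202), Kcnj5 at -1.44 (adjusted p = 0.128) and Kcnh2 at -0.41 (adjusted p = 0.345). Myl7 and Myl4, which enter that covariate, did not overlap between double and single KO hearts. With so few libraries the covariate is hard to tell apart from genotype, and no direction is read from these values. Kcnd3 (0.09), Kcnip2 (0.19), Kcna4 (-0.49), Kcna5 (-0.31), Kcnq1 (0.01), Kcnj5 (0.27), Kcnj8 (-0.02), Kcnj11 (0.08), Kcnj12 (0.06) and Kcnk3 (-0.08) were not called either. The genes that had risen in CPT2H-KO hearts were also present: Kcnc1 was at 5.73, 7.95 and 8.02 CPM in double KO and 5.69, 11.4 and 3.76 CPM in single KO hearts (0.05, SE 0.37). Kcnj4 was at 2.82, 1.49 and 2.11 CPM in double KO and 2.11, 4.42 and 2.02 CPM in single KO hearts (-0.42, SE 0.41). No WT library is in this table, so whether these levels are raised cannot be read from it. Per kb of exon, Kcnj12 gave 67.6 to 84.4% of the summed Kcnj2, Kcnj12 and Kcnj4 level in double KO and 69.2 to 76.8% in single KO libraries.

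The remaining 40 members of the second table had too few counts to test, at most 22 in any library. They include Kcnc2, Kcnh1, Kcnq5, Kcnk13 and Kcnma1, which were tested in the deeper first table. Kcnh8, Kcnj1, Kcnj6, Kcnj9, Kcnj16 and Kcnmb3 had 0 counts in all 6 libraries, which allows a level of up to 0.271 CPM in the smallest library (3 counts, counting error only). Of the partner genes 17 were tested and 0 called, with a median of -0.05; the lowest unadjusted p, 0.00503, belonged to Akap5, a kinase-anchoring protein gene (6.59 ± 2.13 CPM in double KO and 13.2 ± 3.08 CPM in single KO hearts, SD, n = 3 each; log2 fold change -1.0, adjusted p = 0.381).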

How the data were processed

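Total RNA of 16 mouse hearts was sequenced, each library a heart sample per the labels, and groups were read from the sample titles. Per the labels' protocols, RNA was column-purified with DNase treatment and made into stranded libraries after ribosomal RNA removal. Per the submitters' processing notes, bcl2fastq, HISAT2 and DESeq2 1.42.0 were used with build mm10; no source used here names the counting program or says whether it used strand. Both tables hold whole-number read counts for each gene, as the authors deposited them, with no normalisation. No gene of the first has a total under 151 counts, and 1 row of the second has no gene name and was left out.

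Each table was fitted whole with edgeR 4.0.16 in R 4.3.3: filterByExpr, TMM scaling, a quasi-likelihood F test, and Benjamini-Hochberg adjustment over all tested genes with a threshold of 0.05. SEs were derived as |log2 fold change| over the root of F. The model was tested on simulated counts with known changes, set only in genes with a mean above 1 CPM. The shares below therefore do not cover members under that level. At a log2 change of 1 it called 98.5% of the changed genes in the first comparison and 47.8% in the second. At 0.5 the shares were 29.9% and 8.96%. Unchanged genes called were 10 in the first and 16 in the second. Changes of these sizes between double and single KO hearts could thus often be missed. CPM use TMM-scaled library sizes; exon lengths, positions and coding windows are from GENCODE M21 (GRCm38), promoters from RefSeq (GRCm38.p6). Named genes were the panel of 17 and, in each comparison, up to 20 called members with the smallest p, or the 8 smallest p where fewer than 8 passed, and partner genes past the threshold. A few genes enter the counts and fits but are not reported here by name. Members and lists were chosen with earlier results of these data known. Whether hearts came from the same litters is unstated, so p-values reflect only how these samples vary, which may be in part technical. No pair of libraries in a group was a duplicate (chi-square per degree of freedom at least 10.7). That lowest value was for CPT2H-KO replicates 3 and 4, where the other pairs of that group were at 54.7 to 105. Why these libraries were more alike was not tested. Alternatives covered scaling, the filter, DESeq2, limma-voom 3.58.1, a replicate block, a sex term from Y-linked genes, an atrial covariate (mean log2 CPM of Myl7, Myl4 and Sln) and each library left out in turn.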

Additional observations from a re-analysis of the deposited data

Results flagged for a closer look

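Of 54 combinations of a gene and a group of 5 libraries in the first table, 4 held a library whose gap to its nearest neighbour was large against the range of its group, where chance alone gives about 1 in 20. Of these, 3 are described. Kcnj3 was at 21.6 CPM in CPT2H-KO replicate 5, where the other CPT2H-KO libraries were at 1.47 to 6.16 CPM. That library also had the highest Myl7 of its group. Kcnd2 was at 11.9 CPM in WT replicate 5, where the other WT libraries were at 18.6 to 21.2 CPM. Kcnj5 was at 51.5 CPM in WT replicate 1, above the others at 37.1 to 41.1 CPM. The groups of 3 in the second table were not examined in this way.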

How the results depend on the processing

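In CPT2H-KO against WT hearts, 14 of the 24 called members kept their call under all 18 alternatives. With other scaling, no filter on low counts, DESeq2, limma-voom, the replicate block or the sex term, 22 to 25 members were called. Over these settings 29.6 to 40.1% of all genes were called. When a library was left out 21 to 25 members were called, where the share of all genes was 26.1 to 33.9%. The atrial covariate gave 14 members, 9 panel genes and 2 partner genes, with a median of -0.16 over the members; the cause was not tested. Scaling by library totals alone moved the median of all genes to -0.27, with 827 genes higher and 4832 lower (against 2360 and 2398), and the member median to -0.61, with 5 members higher and 18 lower; it turned Kcnj11 to -0.12. Leaving out a library gave 13 to 15 panel genes, 3 to 7 partner genes and a median of -0.38 to -0.23. The replicate numbers did not pair the libraries (correlation of same-numbered deviations from -0.05 to 0.26 in the first table and -0.20 to 0.18 in the second); with the replicate block 25 members, 15 panel genes and 5 partner genes were called, Kcna5 (-0.50) among them.

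In double against single KO hearts the members and the panel each had 0 calls under every alternative except without double KO replicate 1. There each had 1, where 114 of 13177 tested genes, or 0.865%, were called. The range when a library was left out was thus 0 to 1, and partner genes had 0 throughout. The atrial covariate turned the member median to -0.22 and the uncalled values of Kcnc1 (-0.30), Kcnd2 (-1.64), Kcnd3 (-0.84), Kcnip2 (-0.08), Kcnh2 (-0.41), Kcnq1 (-0.15), Kcne1 (-0.03), Kcnj3 (-2.45), Kcnj5 (-1.44), Kcnj11 (-0.46), Kcnj12 (-0.73), Kcna1 (-1.0) and Kcna2 (-0.40). Since Myl7 and Myl4 did not overlap between these groups, this covariate is hard to tell apart from genotype, and no direction is read from the turned signs. Signs of uncalled values near 0 also turned for Kcnd2 and Kcnj12 with limma-voom (-0.13 and -0.03) and the replicate block (-0.09 and -0.01), for Kcna5, Kcnd2 and Kcnd3 with the sex term (0.48, -0.35 and -0.06), and for Kcnq1 without a filter (0.00). When a library was left out, ranges that crossed 0 were -0.59 to 0.01 for Kcna5, -0.26 to 0.61 for Kcnc1, -0.24 to 0.51 for Kcnd2, -0.15 to 0.39 for Kcnd3, -0.07 to 0.11 for Kcnq1, -0.36 to 0.01 for Kcnj2, -0.06 to 0.69 for Kcnj5, -0.17 to 0.08 for Kcnj8, -0.06 to 0.29 for Kcnj11, -0.24 to 0.34 for Kcnj12 and -0.21 to 0.08 for Kcnk3. The lower totals of the second table limit what it can show for low genes.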
